A study of Mus musculus with 6 samples.

Results

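Enzymes that make non-essential amino acids outside the serine pathway were compared in cerebellum between mice labelled WT and mice labelled Slc7a5-KO. The 8 genes were taken by name, as Asns for asparagine, Gpt and Gpt2 for alanine, Got1 and Got2 for aspartate, Aldh18a1 and Pycr1 for proline, and Glul for glutamine. They are 8 of 46983 genes in the deposited count tables, and all 8 passed the filter on low counts that left 16851 genes for testing. RNA came from whole cerebellum of 6 C57BL/6J mice at postnatal day 60, with 3 animals in each group and 1 library from each animal. All 6 mice carried Tie2-Cre, a recombinase transgene active in endothelial and blood-forming lineages. The WT animals were Slc7a5 fl/+, so they also carried 1 floxed allele, and the Slc7a5-KO animals were Slc7a5 fl/fl. The contrast is thus fl/fl against fl/+ under the same Cre, and the label WT does not mean an unaltered Slc7a5 locus. Slc7a5 encodes LAT1, which carries large neutral amino acids across the blood-brain barrier, and the series title ties impaired transport there to autism spectrum disorder. Whole cerebellum holds mostly cells outside the Tie2 lineage, so the values describe the tissue around the vessels far more than the vessels.

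Non-essential amino acids are built from central metabolites by adding nitrogen, mostly from glutamate or glutamine. Transaminases move an amino group between an amino acid and a keto acid in either direction, and many exist as a cytosolic and a mitochondrial form. When amino acids run short, the kinase GCN2 phosphorylates eIF2alpha, translation of the transcription factor ATF4 rises, and ATF4 binds composite sites in genes of amino acid synthesis and transport. Asns is among the classic genes of this response, and the site in the promoter of its human counterpart was one of the earliest nutrient-sensing elements described. In brain, glutamine synthetase from Glul works mainly in astrocytes and Bergmann glia, where it takes up ammonia and glutamate released by neurons.

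Promoter sequences from RefSeq (GRCm38.p6, 250 bases before to 50 after each gene start) were matched for 7 of the 8 genes, all but Gpt. The core of the ATF4 and C/EBP composite site, TGATGNAA, was searched on both strands and was found once in each of 3 promoters, those of Asns, Got1 and Pycr1. It is held by 3.97% of all 32851 promoter windows of this length. The 4 stretches that follow show the 3 matches in capitals and, for contrast, the promoter of Aldh18a1, which holds no match. For Asns, the second block of capitals is GTTACA, a motif added after the sequence had been seen because it forms the second part of the nutrient-sensing unit known from the human gene. The Asns stretch is chr6:7693207-7693232, and those of Got1, Pycr1 and Aldh18a1 are chr19:43524606-43524855, chr11:120643770-120643998 and chr19:40588464-40588713. Each is written 5′ to 3′ on the strand of its gene, which is the minus strand for all 4.
Asns: TGATGAAActtcccgcacgcGTTACA
Got1: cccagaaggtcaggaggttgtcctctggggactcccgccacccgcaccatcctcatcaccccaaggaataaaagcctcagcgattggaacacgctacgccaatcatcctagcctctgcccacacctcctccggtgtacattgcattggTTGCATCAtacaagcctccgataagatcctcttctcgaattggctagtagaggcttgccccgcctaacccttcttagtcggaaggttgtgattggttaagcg
Pycr1: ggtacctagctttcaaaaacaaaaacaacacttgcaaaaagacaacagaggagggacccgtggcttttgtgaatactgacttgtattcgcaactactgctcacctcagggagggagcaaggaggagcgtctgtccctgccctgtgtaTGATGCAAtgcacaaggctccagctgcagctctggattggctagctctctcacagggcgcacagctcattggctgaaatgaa
Aldh18a1: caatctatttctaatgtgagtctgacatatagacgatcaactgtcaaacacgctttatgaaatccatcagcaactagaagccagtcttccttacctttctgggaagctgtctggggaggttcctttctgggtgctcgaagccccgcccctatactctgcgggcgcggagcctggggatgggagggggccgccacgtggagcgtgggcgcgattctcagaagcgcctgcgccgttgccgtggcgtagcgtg
In Asns the match reads on the gene's own strand at -23 to -16 from the RefSeq gene start, and GTTACA follows after 12 bases. GENCODE M21 starts the gene 45 bases further upstream, so both motifs lie in its first exon there. In Pycr1 the match is on the gene's own strand at -103 to -96, and in Got1 it is on the opposite strand at -102 to -95. Both of these lie upstream of the gene in both annotations. GTTACA alone is held by 8.25% of the windows, and both motifs at any spacing by 228 of 32851. The order and spacing seen in Asns occur in 1 window of 32851, that of Asns itself, from which the spacing was taken. A match is a description of the letters and not a measured binding site, and the windows cover only 250 bases before a gene start.

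The libraries held 13.4 to 34.2 M gene reads (M, mega), with Slc7a5-KO replicate 3 the shallowest. Levels are given as CPM, counts per M gene reads after TMM scaling for library composition, and per kilobase of annotated exon where genes are compared with each other. Slc7a5 itself stood at 43.2 to 72.0 CPM in WT and at 59.4 to 164 CPM in the Slc7a5-KO-labelled libraries, so the transcript was not lower there and directions below follow the labels alone. Which part of Slc7a5 was deleted was not given in the sources used here. Markers of the main cerebellar cells were present in all 6 libraries, and none of the 80 markers listed for 9 cell types fell to 3 reads or fewer in any library. Choroid plexus markers summed to 37.7 CPM in Slc7a5-KO replicate 2 against 2380 to 5725 CPM elsewhere. By Xist and Y-linked transcripts females numbered 1 of 3 in WT and 2 of 3 in Slc7a5-KO.

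Asns and Aldh18a1 stood higher in every Slc7a5-KO-labelled library than in any WT library, and Gpt stood lower, but none of the 8 enzymes passed a false discovery rate of 0.05 over all genes. By edgeR (quasi-likelihood, Benjamini-Hochberg over 16851 genes) 0 of 8 passed, where 0.0475% of all genes did, and 2 of 8 had an unadjusted p under 0.05, against 6.22% of all genes. DESeq2 called 1 of the 8, and 0.339% of the 13583 genes to which it gave an adjusted p. By limma-voom 0 were called, and 2 were called in the authors' deposited table (0.9% of its genes with an adjusted p). The median log2 fold change was 0.22 over the 8 enzymes and 0.0022 over all genes tested. The groups did not overlap in 4 of the 8, against 11.5% of all genes. Of these, 3 lay higher in the Slc7a5-KO-labelled libraries (5.93% of all genes) and 1 lay lower (5.54%). The enzymes were chosen with earlier results of these data known, so these counts are a description and not a test. Among the cell type markers, all 10 listed for Purkinje cells lay below 0 (median log2 -0.43), where 8374 of 16851 genes did. By edgeR 0 of these 10 passed and 5 had an unadjusted p under 0.05. Their sums overlapped, at 5829 to 7033 CPM in WT and 4097 to 5954 CPM in the Slc7a5-KO-labelled libraries. In whole tissue, fewer cells of a type and less RNA in each cell cannot be told apart.

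**Figure D1:**
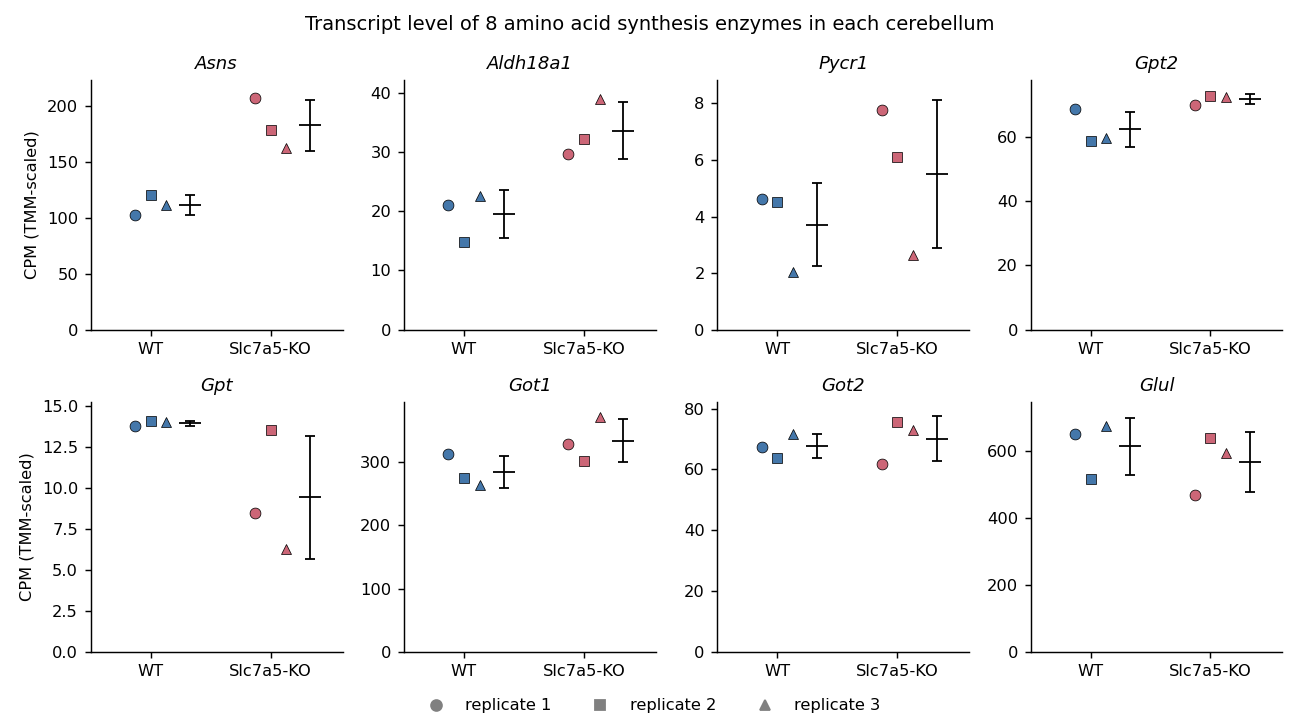
TMM-scaled CPM of the 8 enzymes (vertical axis, from 0) in each WT and Slc7a5-KO cerebellum, with symbols for replicates 1 to 3, a horizontal bar for the mean and whiskers for the SD of 3 animals. Asns, Aldh18a1 and Gpt2 do not overlap between groups and lie higher in Slc7a5-KO, Gpt lies lower, and the other 4 overlap.

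Asns, which moves the amide nitrogen of glutamine onto aspartate to make asparagine, was measured at 103, 120 and 111 CPM in the WT animals 1 to 3. The values were 208, 178 and 162 CPM in the Slc7a5-KO-labelled animals 1 to 3. The lowest of the second group lay well above the highest of the first. The fold change was 1.64 (95% interval 1.35 to 1.99), and Asns ranked 10 of 16851 genes by p (edgeR adjusted p = 0.064). It missed the threshold by a narrow margin that depended on the tool. DESeq2 gave an adjusted p of 0.00039, and edgeR without the filter on low counts gave 0.00046. Over all 16 alternatives the adjusted p ran from 0.00039 to 0.52, and the log2 fold change stayed between 0.61 and 0.79. The authors' deposited table listed Asns at 0.71 (log2 fold change without shrinkage, adjusted p = 1.2e-05). Asns (ENSMUSG00000029752.12) is a protein-coding gene on GRCm38 chromosome 6, 7675169 to 7693254, minus strand, and no other annotated gene overlaps it. Its counts rest on 2208 to 6709 reads a library.

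Proline synthesis starts with Aldh18a1, the mitochondrial enzyme that turns glutamate into pyrroline-5-carboxylate. Its transcript stood at 21.05, 14.8 and 22.5 CPM in WT and at 29.6, 32.3 and 39.0 CPM in the Slc7a5-KO-labelled libraries. The groups did not overlap, though WT replicate 2 lay clearly under the other WT animals. The fold change was 1.72 (95% interval 1.29 to 2.31, edgeR adjusted p = 0.29), the largest of the 8 enzymes. Its adjusted p over the 16 alternatives ran from 0.047 (edgeR without the filter on low counts) to 1.00 (without Slc7a5-KO replicate 3), and it was 0.010 in the authors' deposited table. Pycr1, the mitochondrial reductase that completes proline, was the lowest of the 8, with 36 to 251 reads a library. It stood at 4.61, 4.51 and 2.03 CPM in WT and at 7.77, 6.09 and 2.65 CPM in the Slc7a5-KO-labelled libraries. Replicate 3 was the lowest animal in both groups and the groups overlapped, so the fold change of 1.49 came with an interval from 0.79 to 2.81 (edgeR adjusted p = 0.93). Leaving out 1 library moved the log2 fold change of Pycr1 from 0.58 to between 0.25 (without Slc7a5-KO replicate 1) and 0.90 (when replicate 3 of that group was dropped). Aldh18a1 (ENSMUSG00000025007.13) lies on chromosome 19, 40550257 to 40588463, and Pycr1 (ENSMUSG00000025140.15) on chromosome 11, 120635712 to 120643769, both on the minus strand.

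Other proline genes of the list lay below 0. Pycrl, the cytosolic reductase also called Pycr3, differed by -0.38 ± 0.18 (log2, standard error; edgeR adjusted p = 0.81). Of the 4 genes of proline and ornithine breakdown, 0 passed the threshold by edgeR, and Prodh2 had no reads. Aldh4a1, which turns pyrroline-5-carboxylate back into glutamate, stood at 15.6, 19.6 and 13.8 CPM in WT and at 10.7, 14.1 and 9.12 CPM in the Slc7a5-KO-labelled libraries. These groups overlapped by a little, with a log2 difference of -0.53 ± 0.25 (edgeR adjusted p = 0.79). Prodh, proline dehydrogenase, had -0.09 ± 0.22. The log2 ratio of Aldh18a1 to Prodh, the entry to synthesis against the entry to breakdown, was 0.58, -0.11 and 0.66 in WT. It was 1.29, 1.25 and 1.26 in the Slc7a5-KO-labelled libraries. The range was wider in WT through replicate 2, and a difference in spread was not tested. The group difference was 0.89 ± 0.24 (standard error, 2-sided exact permutation p = 0.1, the smallest that 3 against 3 allows). Without WT replicate 2 it was 0.65.

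The alanine transaminases lay on opposite sides of 0. Gpt2, the mitochondrial form, stood at 68.7, 58.6 and 59.7 CPM in WT and at 70.0, 72.8 and 72.4 CPM in the Slc7a5-KO-labelled libraries. WT replicate 1 came within 1.5 CPM of the lowest Slc7a5-KO library, and the fold change of 1.15 had an interval from 0.94 to 1.40 (edgeR adjusted p = 0.89). Gpt, the cytosolic form, was nearly constant in WT at 13.7, 14.0 and 14.0 CPM. In the Slc7a5-KO-labelled libraries it stood at 8.45, 13.5 and 6.25 CPM, so replicates 1 and 3 were low and replicate 2 was just below the WT range. Its log2 fold change was -0.56 (95% interval -1.14 to 0.03, edgeR adjusted p = 0.82). Leaving out Slc7a5-KO replicate 2 gave -0.91, and leaving out replicate 3 of that group gave -0.34 (edgeR adjusted p = 0.53 and 1.00, and 0.53 to 1.00 over all alternatives). Slc7a5-KO replicate 2 is also the male of its group and the library nearly free of choroid plexus markers, and the part of either in the Gpt values was not tested. Gpt2 (ENSMUSG00000031700.11) lies on chromosome 8, 85492576 to 85527560, and Gpt (ENSMUSG00000022546.4) on chromosome 15, 76695716 to 76699686, both on the plus strand and overlapped by no annotated gene.

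Since a ratio within a library does not depend on how libraries are scaled, the isoenzymes were also set against each other. The log2 ratio of Gpt2 to Gpt was 2.32, 2.06 and 2.09 in WT and 3.04, 2.42 and 3.52 in the Slc7a5-KO-labelled libraries. The difference was 0.84 ± 0.33 (2-sided exact permutation p = 0.1, smallest possible 0.1), and the groups did not overlap. Per exon length, Gpt2 made up 68.5% to 72.3% of the summed alanine transaminase level in WT and 73.7% to 85.8% in the Slc7a5-KO-labelled libraries. The sum itself overlapped, at 15.2 to 16.8 and 15.0 to 17.5 CPM per kb.

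Neither aspartate transaminase passed the threshold, and the groups overlapped for both. Got1, the cytosolic form, stood at 313, 276 and 264 CPM in WT and at 329, 303 and 371 CPM in the Slc7a5-KO-labelled libraries. WT replicate 1 lay above Slc7a5-KO replicate 2, so the groups overlapped, and the fold change was 1.18 (95% interval 0.97 to 1.42, edgeR adjusted p = 0.85). Got2, the mitochondrial form, stood at 67.2, 63.8 and 71.7 CPM in WT and at 61.7, 75.6 and 73.0 CPM in the Slc7a5-KO-labelled libraries. Its fold change was 1.04 (95% interval 0.85 to 1.27, edgeR adjusted p = 0.99). The log2 ratio of Got2 to Got1 differed by -0.18 ± 0.16 between groups (2-sided exact permutation p = 0.3). Intervals of 4 enzymes, Gpt2, Got1, Got2 and Glul, excluded a change of 1.5-fold in either direction. Got1 (ENSMUSG00000025190.13) lies on chromosome 19, 43499752 to 43524605, and Got2 (ENSMUSG00000031672.7) on chromosome 8, 95864134 to 95888547, both on the minus strand. Got2 shares 434 exon bases with Gm45760 on the opposite strand, but reads of the opposite strand were at most 0.30% of those at Got2.

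The malate-aspartate shuttle, which uses Got1 and Got2 to move reducing equivalents into mitochondria, was also taken as a list. Of its 5 other genes, 0 passed the threshold by edgeR and 0 had an unadjusted p under 0.05, with 2 above and 3 below 0. Mdh2, mitochondrial malate dehydrogenase, had the smallest p, at 0.28 ± 0.15 on the log2 scale (edgeR adjusted p = 0.83). Among 8 genes of other aspartate pathways (purine, pyrimidine, argininosuccinate and N-acetylaspartate), 0 passed by edgeR. An unadjusted p under 0.05 was found for 2 of the 8, against 6.22% of all genes. Ass1, which joins aspartate to citrulline to form argininosuccinate, was low, at 2.91, 2.42 and 2.46 CPM in WT and at 3.93, 6.35 and 7.79 CPM in the Slc7a5-KO-labelled libraries. The groups did not overlap, as in 11.5% of all genes, with a log2 difference of 1.20 ± 0.39 (edgeR adjusted p = 0.59). Aspa, the oligodendrocyte enzyme that splits N-acetylaspartate into acetate and aspartate, was chosen after its values were seen. It stood at 23.8, 29.7 and 23.4 CPM in WT and at 16.3, 20.7 and 14.6 CPM in the Slc7a5-KO-labelled libraries, again without overlap (log2 -0.57 ± 0.21, edgeR adjusted p = 0.66). The summed oligodendrocyte markers overlapped between groups, at 4144 to 6187 CPM in WT and 4286 to 7335 CPM in the Slc7a5-KO-labelled libraries. Of the 8 markers 5 lay above 0, with a median log2 fold change of 0.01. By edgeR 0 of them passed and 1 had an unadjusted p under 0.05, against 6.22% of all genes. That 1 was Ermn, which lay lower without overlap (log2 -0.37), as Aspa did.

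Glul, glutamine synthetase, was the most abundant of the 8 in reads and showed no separation of the groups. It stood at 653, 518 and 676 CPM in WT and at 469, 641 and 594 CPM in the Slc7a5-KO-labelled libraries. The fold change was 0.92 (95% interval 0.74 to 1.15, edgeR adjusted p = 0.97). WT replicate 2 and Slc7a5-KO replicate 1 were the lowest libraries. The same libraries had the lowest summed oligodendrocyte markers (4144 and 4286 CPM against 5478 to 7335) and the highest summed granule neuron markers (6498 and 6153 CPM against 3934 to 5078). Summed markers of astrocytes and Bergmann glia, the cells that use Glul most, varied less. They stood at 7690 to 7909 CPM in WT and 7208 to 7523 CPM in the Slc7a5-KO-labelled libraries, lower in the second group without overlap. That separation hangs on single abundant markers. Leaving out Aldoc (1024 to 1402 CPM in WT, 903 to 1135 CPM in the Slc7a5-KO-labelled libraries) makes the sums overlap. Of these 15 markers 0 passed the threshold by edgeR and 4 had an unadjusted p under 0.05, against 6.22% of all genes. Among the 4, Gfap lay higher (log2 0.55), and S100b, Hopx and Aldoc lay lower (-0.38, -0.39 and -0.31). The median log2 fold change of the 15 was -0.09, with 10 members below 0. The part of these cell types in the Glul values was not tested. The log2 fold change of Glul was 0.0049 without Slc7a5-KO replicate 1, so its sign rests on that library. Of 6 other genes of glutamine, glutamate and GABA turnover, 0 passed and 0 had an unadjusted p under 0.05 by edgeR. The smallest p was that of Gad2, a glutamate decarboxylase (log2 0.22 ± 0.14, edgeR adjusted p = 0.88). Glul (ENSMUSG00000026473.15) lies on chromosome 1, 153899944 to 153909723, plus strand. It shares 116 exon bases with Teddm2 on the opposite strand, with at most 0.053% of reads on that strand, and 93 with Mir8114 on its own.

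**Figure D2:**
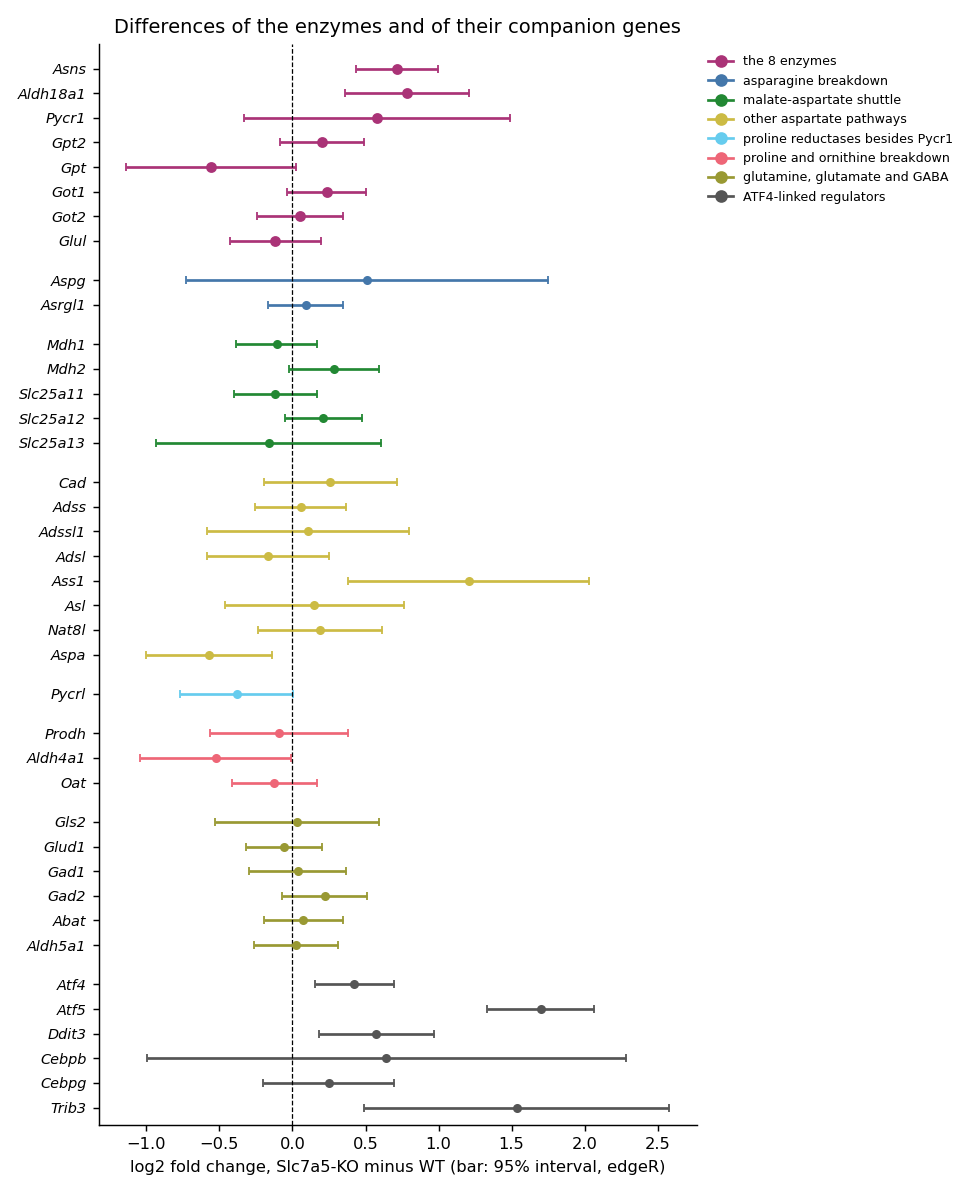
Log2 fold change of the Slc7a5-KO-labelled libraries over WT (horizontal axis) with its 95% interval from edgeR for the 8 enzymes and, in other colours, the tested companion genes by role. The intervals of Asns (0.44 to 0.99) and Aldh18a1 (0.36 to 1.21) lie above 0 before adjustment over all genes, and those of the other 6 enzymes include 0.

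The asparaginases were measured beside Asns. Asrgl1, an asparaginase, stood at 131, 119 and 132 CPM in WT and at 137, 132 and 137 CPM in the Slc7a5-KO-labelled libraries, a separation of under 1 CPM. Its log2 fold change was 0.09 ± 0.12 (edgeR adjusted p = 0.97), and that of Aspg, a low asparaginase, was 0.51 ± 0.59. The log2 ratio of Asns to Asrgl1 was -0.35, 0.01 and -0.24 in WT and 0.60, 0.43 and 0.24 in the Slc7a5-KO-labelled libraries. The difference was 0.62 ± 0.15 (2-sided exact permutation p = 0.1, smallest possible 0.1). Over the 6 ratios tested, of which 4 are reported, the adjusted p was 0.2 for Asns to Asrgl1, Gpt2 to Gpt and Aldh18a1 to Prodh, and 0.45 for Got2 to Got1.

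**Figure D3:**
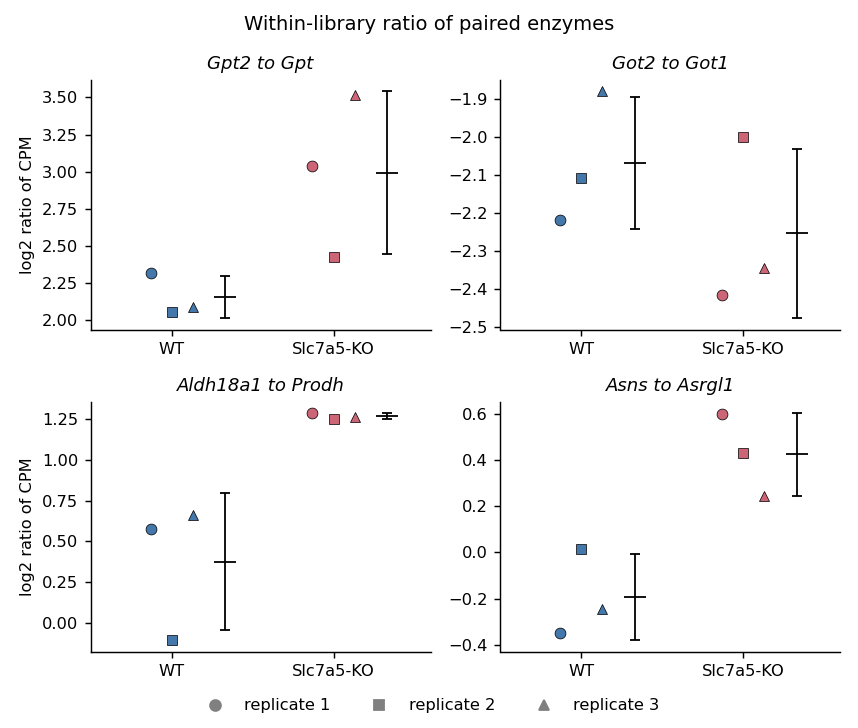
Log2 ratio of CPM within each library (vertical axis, a different range in each panel) for 4 pairs of enzymes, with symbols for replicates 1 to 3, bars for the mean and whiskers for the SD of 3 animals. Gpt2 to Gpt, Aldh18a1 to Prodh and Asns to Asrgl1 lie higher in all 3 Slc7a5-KO-labelled libraries, and Got2 to Got1 overlaps.

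Taken over all 28 companion enzymes and carriers, 25 were tested and 0 passed by edgeR. An unadjusted p under 0.05 was found for 3 (Ass1, Aspa and Aldh4a1), against 6.22% of all genes. DESeq2 and limma-voom also called 0 of them. Their median log2 fold change was 0.04. The groups did not overlap in 16% of them, against 11.5% of all genes and 4 of the 8 enzymes, a difference that was not tested. Agxt, Agxt2 and Prodh2 had 0 reads in every library. Of 6 ATF4-linked regulators, all 6 lay above 0, where 8477 of 16851 genes did. An unadjusted p under 0.05 was found for 4 (against 6.22% of all genes), and 1 passed by edgeR (against 0.0475%). The 1 that passed was Atf5, a factor that the same stress pathway induces (edgeR adjusted p = 0.00017). It stood at 19.5 to 25.2 CPM in WT and at 61.9 to 91.0 CPM in the Slc7a5-KO-labelled libraries. For Atf4 mRNA the log2 value was 0.42 ± 0.13 (edgeR adjusted p = 0.53), with no overlap between groups. The adjusted p of Atf4 was 0.022 in the authors' deposited table and 0.082 by DESeq2. Groups were also apart for Trib3, a pseudokinase induced by ATF4 (1.53 ± 0.50), and Ddit3, the stress factor CHOP (0.57 ± 0.19). Each had an edgeR adjusted p of 0.59, and the authors' deposited table gave 0.091 for Trib3 and 0.093 for Ddit3. Groups overlapped for Cebpb (0.64 ± 0.78), which rested on 23 to 53 reads a library, and for Cebpg (0.25 ± 0.21).

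Per exon length, the order of the enzymes in WT was Glul (185 CPM per kb), Got1 (112), Asns (40.8), Got2 (14.0), Gpt2 (11.0), Aldh18a1 (4.78), Gpt (4.73) and Pycr1 (0.94). The ranges of neighbours overlapped for Aldh18a1 and Gpt and for no other pair. The order was the same in the Slc7a5-KO-labelled libraries, where Asns stood at 66.8 and Aldh18a1 at 8.25 CPM per kb. There Aldh18a1 and Gpt no longer overlapped, at 7.26 to 9.57 and 2.12 to 4.60 CPM per kb, whereas Glul with Got1 and Got2 with Gpt2 did. Exon length was the union of all annotated transcripts, so a gene with long minor isoforms is listed too low. Cytosolic Got1 made up 87.5% to 91.0% of the summed aspartate transaminase level over the 6 libraries.

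The enzymes varied among themselves from animal to animal. Over the 6 libraries the Pearson correlation of log2 CPM was 0.71 between Asns and Aldh18a1, 0.84 between Gpt2 and Aldh18a1 and 0.82 between Gpt2 and Got1. It was -0.88 between Gpt and Got1 and 0.80 between Got2 and Glul. These are descriptions over 6 points that share group and library. The 3 genes most like Asns, among 14651 with a mean of at least 1 CPM, were Shmt2, the mitochondrial serine hydroxymethyltransferase (r = 0.984), Tmem11 (0.980) and Mars, the methionyl-tRNA synthetase (0.979). Those most like Aldh18a1 were Lrrc8c, Dcaf5 and Tnr (r = 0.990, 0.987 and 0.985). Those most like Gpt2 were Fign, Anxa5 and Stx6 (0.995, 0.993 and 0.991), and those most like Gpt were Dus1l, Tmem8 and Pdk3 (0.995, 0.992 and 0.990).

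Set beside the promoter sequences, the enzymes with the TGATGNAA core had log2 fold changes of 0.71 (Asns), 0.23 (Got1) and 0.58 (Pycr1). Those without it in the window had 0.20 (Gpt2), 0.05 (Got2), 0.78 (Aldh18a1) and -0.12 (Glul). The 2 sets overlapped, with Aldh18a1 highest of all 7.

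**Figure D4:**
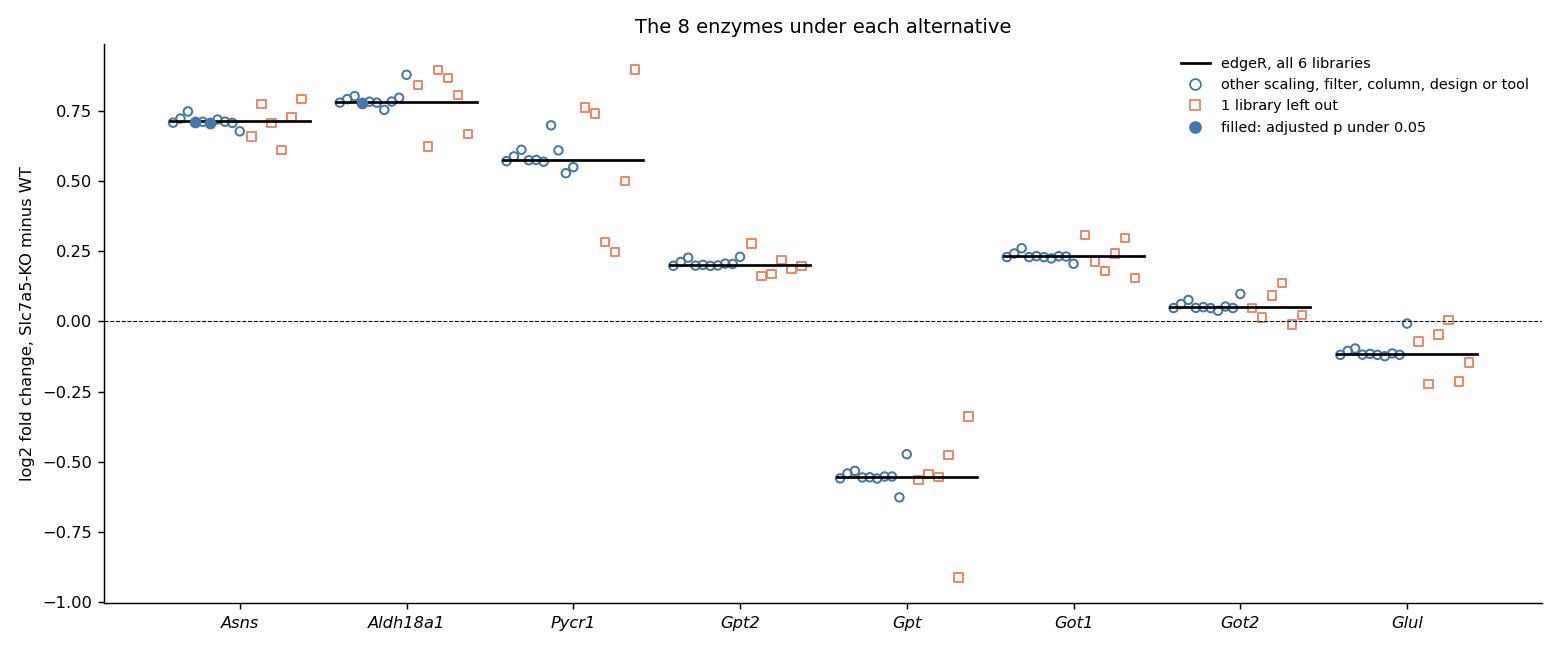
Log2 fold change of each enzyme (vertical axis) under 10 other settings (circles) and with 1 of the 6 libraries left out (squares), beside the value from edgeR with all libraries (black line). Filled symbols mark an adjusted p under 0.05, which occurred for Asns under 2 settings and for Aldh18a1 under 1.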

How the data were processed

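Cerebellum RNA of 6 mice was sequenced by the submitters with a SENSE mRNA-Seq V2 kit, per the labels' protocols. Alignment was with STAR 2.5.4 to build GRCm38, per the submitters' processing notes. The authors deposited read counts for each gene without normalisation. Their annotation release was not given in the sources used here. For all tests the reverse-strand column was taken, which held 94.8% to 95.8% of stranded reads. Reads in no gene or several genes (19.5% to 22.2%) stayed out of library sizes and tests. Multimapping reads are listed as 0, so near-identical copies are uncertain, and no molecular identifiers are described.

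The authors' deposited comparison (DESeq2 1.10.1, R 3.2.4) gives a mean normalised count (a signal over all libraries), log2 fold changes, a standard error and a Wald score, and p-values with adjusted p-values, per the file headers.

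Symbols matched 46488 of 46983 identifiers, and coordinates are from GENCODE M21. Low genes were removed by filterByExpr (minimum count 10, minimum total 15) and libraries scaled by TMM before testing with edgeR 4.0.16 in R 4.3.3 (quasi-likelihood, robust, group alone, Benjamini-Hochberg, false discovery rate 0.05). Alternatives used limma 3.58.1 (voom) and DESeq2 1.42.0. For log2 CPM the prior count was 2. Numbers after ± are standard errors of log2 differences. The 6 ratios were tested by exact permutation and adjusted together, and 2 of them, with the companion genes they need, are not reported here. On simulated counts for 16851 genes (200 of them altered), edgeR recovered 18.8%, 58.8% and 87.5% of those altered 1.5-fold, 2-fold and 4-fold, and 9 unaltered genes were called. The altered genes were drawn from those with a mean of at least 1 CPM. Many altered genes make the adjusted threshold easier to pass than in the data, where 8 genes passed. These shares may therefore overstate recovery in the data.

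The enzymes and all lists were chosen with earlier results of these data known. Named genes are the 8 enzymes, Slc7a5, from each companion list those past the threshold or else the 1 with the smallest p, and the 3 genes most correlated with each enzyme whose groups do not overlap. Others, such as Aspa, Prodh, Aspg, Atf4, Trib3 and Ddit3, were named for a pair or after their values were seen.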

Additional observations from a re-analysis of the deposited data

How the results depend on the processing

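The number of enzymes past the threshold was 0 with edgeR and all libraries, 2 without a filter on low counts (Asns and Aldh18a1) and 1 by DESeq2 (Asns). The number of all genes past it was 8, and 71 without a filter, 46 by DESeq2, 16 with a sex term and 3 to 20 when 1 library was left out (3 when this was WT replicate 3, 5 for WT replicate 1 and for Slc7a5-KO replicate 3, 20 for either of the other Slc7a5-KO replicates). The cause was not tested. The median log2 fold change of the 8 enzymes stayed between 0.17 and 0.29. Log2 values near 0 changed sign with 1 library left out for Glul (-0.22 to 0.0049, the latter without Slc7a5-KO replicate 1) and Got2 (-0.011 to 0.14, the former without Slc7a5-KO replicate 2). Over the 16 alternatives the other 6 enzymes kept their direction.

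Same-numbered animals did not deviate together (Pearson correlations from -0.06 to -0.03 over 16851 genes). Animals of different number had -0.03 to 0.07. Deviations from a mean of 3 libraries cannot exclude a shared litter or batch, so whether the numbers pair animals is not known. With the number as a replicate block, the log2 difference of Asns was 0.71 (edgeR adjusted p = 0.14), 0 of the 8 enzymes and 6 of all genes passed, and the 4 ratios reported had exact permutation p of 0.25 or 0.5, where 3 pairs allow no less than 0.25. For Slc7a5 the log2 difference was 0.91 (edgeR adjusted p = 0.84), 0.57 with a sex term, 0.55 without Slc7a5-KO replicate 1 and 1.22 when replicate 2 of that group was dropped, where it passed the threshold (edgeR adjusted p = 0.010, 0.010 to 1.00 over all alternatives). Pycr1 had the fewest reads (36 to 251 a library), and Gpt in Slc7a5-KO replicate 3 rested on 85 reads.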

Other observations

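Sex was read from transcripts, and its interaction with group was tested after the data were seen, with 2 residual degrees of freedom. None of the 8 enzymes passed by edgeR (adjusted p = 0.72 to 0.99 over 16851 genes, unadjusted p from 0.10), where 39 genes did. Gpt differed by -0.94 (log2, Slc7a5-KO minus WT) in females and by -0.03 in males, and Aldh18a1 by 1.19 and 0.57. Pycr1 differed by 0.01 in females and 0.98 in males, and Asns by 0.61 and 0.74. Each sex held 1 animal of one group and 2 of the other.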
